A study of Homo sapiens with 46 samples.

Results

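Cytoplasmic RNA of mesoderm cells was compared with cytoplasmic RNA of the undifferentiated human pluripotent stem cells (hPSC) from which they had been derived, over 6 of the study's 46 libraries. Members were chosen by their labels: the 3 mesoderm cytoplasm libraries and the 3 hPSC cytoplasm libraries. Both groups came from H1, an established human embryonic stem cell line grown in mTeSR1 medium on Matrigel, so both rest on 1 line. The hPSC group received no differentiation agent. The mesoderm group was grown in DMEM/F12 with 0.5% serum, VEGF (100 ng/ml), BMP4 (100 ng/ml) and bFGF (10 ng/ml), with Activin A (100 ng/ml) for the first 24 hours only, and was collected after 5 days. Cells of both groups were lysed in 0.05% NP-40, the lysate was spun over sucrose, and the supernatant was taken as cytoplasm; the buffers held α-amanitin, an inhibitor of RNA polymerase II, and the RNA sequenced was total RNA. The other libraries of the study hold nuclear fractions of the same cells and the fractions of endoderm and ectoderm cells. They enter here only where a value of the cytoplasm comparison is set beside them.

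Pluripotent stem cells keep their state through a network of transcription factors around OCT4 (encoded by POU5F1), SOX2 and NANOG, with activin and FGF signals from outside. BMP4 binds receptors of the BMP family, whose kinases phosphorylate SMAD1, SMAD5 and SMAD9; these enter the nucleus with SMAD4 and switch on direct targets such as the ID genes, MSX2 and the feedback inhibitors SMAD6, SMAD7 and BAMBI. In early embryos BMP and activin signals drive epiblast cells through the primitive streak, marked by TBXT, MIXL1 and EOMES, to mesoderm, whose lateral plate gives heart, vessels and body wall; in human pluripotent cells in culture, high BMP4 is also known to induce genes of amnion and trophoblast.

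Each cell type was quantified on its own transcript assembly, so a difference of assembly and a difference of cell type cannot be told apart. Transcript counts were summed per Ensembl gene, and the tables were joined on genes found in both. There were 15115 genes with a row for hPSC and 15004 with a row for mesoderm, of which 12482 were in both tables. There were 2633 genes in the hPSC table only and 2522 in the mesoderm table only. These are described with no test, because a gene without a model in a table was not counted there, which differs from a count of 0. Values are given as CPM, which are counts scaled to a common library total after TMM normalisation, in the order of replicates 1, 2 and 3. Changes are log2 mesoderm over hPSC with their standard error (SE), tested with edgeR's quasi-likelihood F test and adjusted by Benjamini-Hochberg over all genes tested; a gene is said to have risen or fallen at an adjusted p under 0.05.

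The hPSC cytoplasm libraries held 8329295 to 15073269 counts and the mesoderm cytoplasm libraries 13506967 to 17143491. Across genes, which are not independent replicates, the correlation of log2 values between replicate libraries was 0.974 to 0.994 (Pearson). Every replicate pair differed by more than counting noise (chi-squared per degree of freedom 5.66 to 52.2). Replicate 1 of hPSC stood apart: both pairs that hold it gave 36.4 and 52.2, where hPSC replicates 2 and 3 gave 5.66. The labels do not say whether libraries came from separate cultures, so p-values measure only the spread between these libraries, which may be technical.

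Of 12164 genes tested, 8016 changed (65.9%), 4144 upward (34.1%) and 3872 downward (31.8%). The median SE of the called changes was 0.14 and their median size was 0.91 on the log2 scale, with a median over all genes of 0.02. Requiring a change of at least 2-fold as well left 3511 genes (28.9%), 2064 higher and 1447 lower. The libraries of the groups did not overlap in 8680 genes (71.4%). Without hPSC replicate 1, 8851 genes were called. Of the calls, 51.7% were upward in counts and 64.4% in the authors' TPM. So many genes changed that a share of a gene list near 34.1% upward or 31.8% downward is no more than the share of all genes.

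The pluripotency list held 30 genes, of which 23 could be tested; 19 fell, 2 rose and the median change was -1.75. The other 7 were found in the hPSC table only. POU5F1, the central pluripotency factor, stood at 3948, 2999 and 2784 CPM in hPSC and at 922, 859.5 and 1014 CPM in mesoderm. The groups did not overlap, as in 71.4% of all genes, and POU5F1 remained an abundant mRNA in every mesoderm library. The change was -1.80 (SE 0.17, adjusted p = 2.65e-05). In the authors' TPM, which corrects for length, it went from a mean of 2540.0 to 890.1. DNMT3B, the de novo DNA methyltransferase of pluripotent cells, went from 1647, 1765 and 2109 CPM to 126, 123 and 129.8 CPM, a fall of 3.86 (SE 0.15, adjusted p = 1.53e-07). ESRG, a long noncoding RNA of human stem cells, went from 1994, 1785 and 1923 to 169.9, 179 and 183 CPM (-3.42, SE 0.13). Both genes were far lower in every mesoderm library than in any hPSC library.

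TERF1, a telomere-binding protein abundant in stem cells, went from 562, 575 and 556 to 70.3, 87.0 and 84.5 CPM (-2.81, SE 0.12). The transcription factor ZSCAN10 went from 428, 335 and 343 to 50.7, 47.5 and 58.8 CPM (-2.82, SE 0.14). DPPA4, a chromatin protein of early embryos, went from 784, 783 and 786 to 171, 159 and 159 CPM (-2.26, SE 0.10). None of these genes overlapped between the groups, which was so for 71.4% of all genes. DPPA2, the partner of DPPA4, had the lowest value of the list at -6.11 (SE 0.49), from 13.9, 10.9 and 10.1 to 0, 0.372 and 0.0805 CPM. At the weak end, ZFP42 (REX1) fell by 0.49 (SE 0.12, adjusted p = 0.00507), from 156, 191 and 203 to 127, 135 and 131 CPM, and was at -0.24 and not called in the authors' TPM (adjusted p = 0.272). LIN28A, which blocks let-7 processing, was not called: its hPSC libraries held 1211, 2556 and 2539.9 CPM and the mesoderm libraries 1476, 1629 and 1636 CPM (-0.41, SE 0.26, adjusted p = 0.192). Replicate 1 of hPSC lay below the mesoderm libraries while the other hPSC libraries lay above them; without it, 21 of the 23 fell and 2 rose. The members called higher were PODXL, a surface sialomucin (from 637 ± 134 to 891 ± 55.0 CPM, SD, n = 3), and KLF4, a factor of the naive state (from 2.13 ± 0.601 to 7.90 ± 0.486 CPM). The PODXL call was lost without TMM (adjusted p = 0.0601) and without hPSC replicate 2 or any 1 mesoderm replicate (adjusted p from 0.0555 to 0.102).

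The 7 pluripotency genes with a row in the hPSC table only had these means in hPSC cytoplasm: TDGF1, the Nodal co-receptor CRIPTO, 476 ± 65.2 CPM; SOX2 208 ± 8.05 CPM; NANOG 84.5 ± 19.1 CPM; PRDM14 51.3 ± 6.74 CPM; FOXD3 33.5 ± 2.46 CPM; UTF1 28.9 ± 7.00 CPM; and GDF3 1.40 ± 0.263 CPM (SD, n = 3). They had no row in the mesoderm table used here, and no fold is given. Of 13 stem cell long noncoding RNAs, 7 were likewise in the hPSC table only, 3 were in neither table and 3 were tested. Of the 3 tested 1 fell, ESRG, a share near the 31.8% of all genes that fell. LINC00678 stood at 520.2, 494 and 427 CPM in hPSC and LNCPRESS1 at 121, 89.0 and 78.0 CPM.

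MIR302CHG, the host transcript of the miR-302/367 cluster, was among the most abundant genes of the hPSC table that had no row in the mesoderm table, at 576, 222 and 175 CPM. The highest value was that of replicate 1. The cluster lies on chromosome 4 (hg38 112646476 to 112650051 for the host gene). Its mature miRNAs are shown because 4 of them carry 1 seed, the bases 2 to 8 that pair with targets (in capitals, 5′ to 3′, RefSeq, GRCh38.p14); miR-367 has another seed. Mature miRNAs were not measured here.
hsa-miR-302a-3p: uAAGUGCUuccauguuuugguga
hsa-miR-302b-3p: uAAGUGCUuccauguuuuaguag
hsa-miR-302c-3p: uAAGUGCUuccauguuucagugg
hsa-miR-302d-3p: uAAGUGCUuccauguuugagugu
hsa-miR-367-3p: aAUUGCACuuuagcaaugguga

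**Figure D1:**
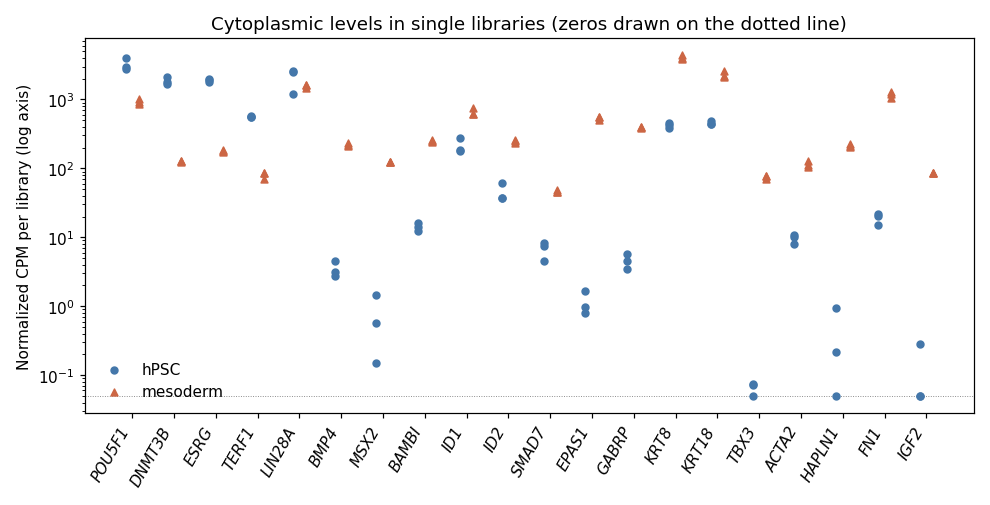
Normalised CPM in single cytoplasm libraries (log axis) of 20 genes, with circles for the 3 hPSC libraries and triangles for the 3 mesoderm libraries; zeros are drawn on the dotted line. The 4 leftmost genes are lower in every mesoderm library, LIN28A overlaps, and the other 15 are higher in every mesoderm library.

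BMP4 was among the agents in the mesoderm medium, with VEGF and bFGF. Of 35 listed BMP pathway genes, 19 could be tested, 18 rose and 0 fell, with a median change of 1.20; ID3 was the member not called (0.36, SE 0.24, adjusted p = 0.209; hPSC 302, 164 and 159 CPM, mesoderm 233, 261 and 309 CPM). A further 13 members were in the mesoderm table only, 2 in the hPSC table only and 1 in neither. Over only those transcripts that carry 1 Ensembl ID in both tables, 14 of 17 rose and 1 fell, which was ACVR1. In the nucleus libraries of the same cell types 17 of the 19 rose and 0 fell, where 35.3% of all genes rose and 35.5% fell.

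Among the ligands, BMP4 itself stood at 4.50, 3.13 and 2.70 CPM in hPSC and at 219.8, 211 and 236 CPM in mesoderm. The rise was 6.06 (SE 0.17, adjusted p = 5.59e-08). This mRNA is the cells' own, apart from the protein added to the medium. BMP7 rose by 0.51 (SE 0.13), from 17.5, 18.1 and 22.9 to 27.4, 26.8 and 29.6 CPM. GDF6, a BMP family ligand, had a row in the mesoderm table only, at 77.4, 77.5 and 68.0 CPM, as did BMP2 at 24.5, 21.5 and 19.4 CPM. Of the receptors, BMPR1A went from 53.6, 68.9 and 67.6 to 149, 144 and 133 CPM (1.16, SE 0.12, adjusted p = 3.85e-05). BMPR2, the type II receptor, went from 10.3, 10.00 and 10.2 to 46.0, 47.8 and 40.7 CPM (2.14, SE 0.11, adjusted p = 7.81e-07). The activin type II receptor ACVR2A rose too (1.20, SE 0.16). The signal-carrying SMAD1 (0.48, SE 0.11) and SMAD5 (0.92, SE 0.13) rose modestly, and SMAD9, at 18.8, 17.3 and 18.9 CPM, was in the mesoderm table only.

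Direct targets differed in size of change. ID1, an inhibitor of bHLH factors, went from 272, 183 and 176 to 608, 617 and 749.9 CPM (1.65, SE 0.18, adjusted p = 6.71e-05). ID2 went from 62.2, 36.6 and 37.7 to 232, 256 and 249 CPM (2.44, SE 0.20, adjusted p = 9.80e-06) and ID4 from 26.7, 23.4 and 23.6 to 181, 182 and 166 CPM (2.84, SE 0.10, adjusted p = 1.28e-07). In each of these genes every mesoderm library lay well above every hPSC library. MSX2, a homeobox factor, went from 1.46, 0.149 and 0.569 to 124, 125 and 126 CPM, a rise of 7.66 (SE 0.32, adjusted p = 2.59e-07). The mesoderm libraries were nearly level, and the hPSC libraries held very few counts. DLX3, another homeobox gene, was in the mesoderm table only at 26.0, 25.2 and 24.6 CPM.

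Inhibitors of the pathway rose too. BAMBI, a pseudoreceptor without kinase, went from 16.2, 12.2 and 13.9 to 251, 255 and 242 CPM (4.16, SE 0.13, adjusted p = 7.52e-08). SMAD7 went from 4.50, 8.35 and 7.40 to 44.8, 49.0 and 45.0 CPM (2.73, SE 0.18, adjusted p = 3.14e-06). SMAD6, the inhibitory SMAD most tied to BMP signals, was in the mesoderm table only at 49.7, 52.3 and 60.3 CPM. The secreted antagonists NOG (27.4, 30.1 and 25.8 CPM) and GREM1 (22.9, 21.5 and 18.6 CPM) were likewise in the mesoderm table only. Their levels in hPSC were not analysed here.

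Promoters of BAMBI, ID1 and MSX2 are shown because these targets rose at different sizes, and the sequence that BMP SMADs are known to bind, GGCGCC, was searched for within the 250 bases before the start site (RefSeq, GRCh38.p14; matches in capitals, palindromic, so both strands read alike). BAMBI lies on the plus strand, chr10:28677271-28677520, with 3 matches; ID1 lies on the plus strand, chr20:31605039-31605288, with 0 matches; MSX2 lies on the plus strand, chr5:174724332-174724581, with 0 matches.
BAMBI: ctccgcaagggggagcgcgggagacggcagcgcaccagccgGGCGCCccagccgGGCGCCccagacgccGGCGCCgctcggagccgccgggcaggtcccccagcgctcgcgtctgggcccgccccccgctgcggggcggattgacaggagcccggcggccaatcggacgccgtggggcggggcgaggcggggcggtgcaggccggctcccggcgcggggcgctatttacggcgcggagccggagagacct
ID1: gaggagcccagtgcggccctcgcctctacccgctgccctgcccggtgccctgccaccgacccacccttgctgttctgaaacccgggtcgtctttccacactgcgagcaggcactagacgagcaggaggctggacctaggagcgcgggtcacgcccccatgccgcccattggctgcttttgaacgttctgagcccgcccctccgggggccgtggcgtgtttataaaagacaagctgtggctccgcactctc
MSX2: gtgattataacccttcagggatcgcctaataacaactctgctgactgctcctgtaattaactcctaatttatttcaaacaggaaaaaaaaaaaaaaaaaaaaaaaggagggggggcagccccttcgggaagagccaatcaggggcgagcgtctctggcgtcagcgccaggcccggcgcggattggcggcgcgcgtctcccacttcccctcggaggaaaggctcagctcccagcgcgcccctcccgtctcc
MSX2, with the largest rise of the BMP list, had no match. Whether matches go with the size of the rise was not tested. The motif occurred in 7 of 17 BMP list genes that rose and have a RefSeq promoter (41.2%), in 33.2% of the 9489 tested genes with one and in 19.0% of all 27305 promoters. The share in the list is close to that of all tested genes, and a window without a match says nothing of sites farther away.

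The mesoderm label was checked against marker genes of the primitive streak and early mesoderm. Of 23 such genes, 3 were tested, 6 were in the hPSC table only, 4 in the mesoderm table only and 10 in neither. TBXT (brachyury), the defining gene of the streak, was at 0.128, 0.124 and 0.161 CPM in mesoderm, and MIXL1 had a row in the hPSC table only, at 1.06, 1.19 and 0.640 CPM. EOMES, MESP1, MSGN1 and GSC had a row in neither table used here. APELA, a peptide ligand of the apelin receptor that stem cells also make, rose by 0.59 (SE 0.09). TBX6, a factor of presomitic mesoderm, fell, from 10.6, 6.34 and 6.19 to 4.11, 4.78 and 3.30 CPM (-0.88, SE 0.26, adjusted p = 0.0159; 0.0605 without mesoderm replicate 3). In the authors' TPM, TBX6 was at -0.42 and not called (limma, adjusted p = 0.0814). PDGFRA, a receptor of early mesoderm, was not called (1.99, 1.94 and 2.13 CPM in hPSC, 4.50, 2.85 and 1.85 CPM in mesoderm). Of 15 paraxial mesoderm genes 10 were in neither table, 1 of 2 tested rose (DLL1) and 1 fell (TBX6). The defining streak and paraxial markers thus had no row or very low values in mesoderm cytoplasm, so they do not bear out the label at day 5; the group is called mesoderm because its libraries are labelled so.

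The lateral plate and cardiac list went the other way. Of 34 genes 11 were tested, 9 rose, 1 fell (SRF, -0.72 in counts but 1.24 in the authors' TPM), and the median was 2.38. A further 9 were in the mesoderm table only, 2 in the hPSC table only and 12 in neither. The summed level of the tested members was 508, 438 and 453 CPM in hPSC and 2128, 2131 and 2279 CPM in mesoderm. The tested members whose CPM values are given below made up the smaller part of these sums in both groups. HAND1, a bHLH factor of lateral plate and extraembryonic mesoderm and of trophoblast, was in the mesoderm table only at 130.5, 135 and 148 CPM. TBX3, a T-box factor, had 0, 0.0746 and 0.0712 CPM in hPSC and 77.7, 78.2 and 70.8 CPM in mesoderm, a ratio of 1329 (95% counting interval 368 to 10979.8). HAPLN1, a link protein that joins hyaluronan to proteoglycans, went from 0.927, 0 and 0.213 to 202, 223 and 208 CPM (9.46, SE 0.39, adjusted p = 2.31e-07). TBX3 and HAPLN1 separated the groups without any overlap, as did 71.4% of all genes.

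ACTA2, smooth muscle actin, went from 10.9, 7.91 and 9.96 to 105, 113 and 127 CPM (3.60, SE 0.14, adjusted p = 1.97e-07). TNNT2, the cardiac troponin T, went from 17.9, 12.4 and 9.54 to 42.3, 61.3 and 63.4 CPM (2.10, SE 0.24, adjusted p = 6.91e-05). ISL1 (57.6, 55.6 and 66.6 CPM), the GATA factor GATA6 (4.62, 4.90 and 4.27 CPM) and NKX2-6 (37.2, 45.1 and 40.5 CPM) were in the mesoderm table only, as was the cardiac factor NKX2-5 at 6.55, 7.76 and 6.68 CPM. GATA4, TBX5, TBX20, HAND2, FOXF1, MYH6 and MYH7, of which several define heart or lateral plate, had a row in neither table used here. In bulk libraries fewer cells of a type and less RNA per cell cannot be told apart.

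Markers of other cell types were set beside these. The amnion and trophoblast list held 32 genes, of which 12 were tested: 10 rose, 0 fell, and the median was 2.80. Another 16 were in the mesoderm table only, 0 in the hPSC table only and 3 in neither, and HLA-G was in both but too low to test. The tested members summed to 1116, 1259 and 1152 CPM in hPSC and to 8423, 8215 and 9364 CPM in mesoderm, and keratins made up most of the latter. KRT8 went from 385, 461 and 429.8 to 3961, 3832 and 4422 CPM (3.26, SE 0.15, adjusted p = 4.28e-07) and its partner KRT18 from 440.3, 484 and 435 to 2153, 2119 and 2586 CPM (2.33, SE 0.14, adjusted p = 1.66e-06). Both keratins are made by simple epithelia in general. KRT7 was not called (34.4, 29.8 and 25.8 CPM in hPSC, 24.7, 27.5 and 34.0 CPM in mesoderm, adjusted p = 0.751).

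More restricted members rose as well. GABRP, a GABA receptor subunit found in amnion, went from 3.44, 5.74 and 4.48 to 385, 398 and 396 CPM (6.39, SE 0.17, adjusted p = 4.94e-08). VTCN1, an immune checkpoint ligand found in amnion and trophoblast, had 0, 0.149 and 0 CPM in hPSC and 30.7, 27.0 and 31.3 CPM in mesoderm, a ratio of 517 (95% counting interval 143 to 4271). IGFBP3, an IGF-binding protein, went from 9.80, 10.7 and 11.6 to 199, 217 and 224 CPM (4.31, SE 0.12). All of these were low in each hPSC library and far higher in each mesoderm library. The factors TFAP2A (175, 186 and 166 CPM), GATA3 (129.9, 131 and 125 CPM), GATA2 (29.6, 32.1 and 29.4 CPM), TP63 (25.9, 32.1 and 26.9 CPM) and the ligand WNT6 (62.0, 59.5 and 65.6 CPM) were in the mesoderm table only. At the other end, CDX2 was at 0.578 CPM, ELF5 at 1.02, CGA at 1.12 and the syncytins ERVW-1 and ERVFRD-1 at 0.0628 and 0.0414 CPM, all mesoderm means, and CGB3 had a row in neither table used here. The part of amnion or trophoblast cells in the other results was not tested. ISL1, HAND1, MSX2, TFAP2A and GATA3 are also used by other tissues, and ISL1 is on both lists.

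Lists of the other lineages had few members that could be tested. In the endothelial and hemogenic list 7 of 30 genes were tested, 2 rose and 5 fell, where 34.1% of all genes rose and 31.8% fell. Another 7 were in the mesoderm table only, 3 in the hPSC table only and 12 in neither. KDR, the VEGF receptor that marks vascular mesoderm, was in the hPSC table only, at 22.4, 28.5 and 32.1 CPM, and FLT1, another VEGF receptor, fell from 14.8, 19.7 and 20.9 to 4.05, 3.41 and 2.66 CPM (-2.45, SE 0.21, adjusted p = 1.29e-05). NRP1, a VEGF and semaphorin co-receptor, rose from 0.265, 0.448 and 0.285 to 13.5, 11.6 and 12.4 CPM (5.16, SE 0.26, adjusted p = 6.19e-07), and RUNX1 was in the mesoderm table only at 19.6, 20.4 and 16.5 CPM. PECAM1, TAL1, CD34, ERG and GATA1 had a row in neither table used here, ETV2 was in both but too low to test, and CDH5 stood at 0.498 CPM. The endothelial members tested summed to 72.4, 71.7 and 77.1 CPM in hPSC and 55.6, 47.7 and 47.1 CPM in mesoderm. In the definitive endoderm list 3 of 23 were tested (1 rose, 2 fell), and SOX17, FOXA2 and HNF4A had a row in neither. A further 5 of that list were in the mesoderm table only and 2 in the hPSC table only. In the neuroectoderm list 7 of 27 were tested (3 rose, 2 fell), 3 were in the mesoderm table only and 4 in the hPSC table only. PAX6 and SOX1 had a row in neither, and ZIC2 (125 ± 9.30 CPM) was in the hPSC table only. Of 39 HOX genes 35 were in neither table and 4 in the mesoderm table only, the highest HOXB2 at 5.65, 6.33 and 6.68 CPM. In the germ cell list 7 of 15 were tested (3 rose, 2 fell), with TFAP2C rising by 1.81 and ALPL, an alkaline phosphatase of stem and germ cells, falling by 1.64. There 1 more was in the mesoderm table only and 2 were in the hPSC table only.

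**Figure D2:**
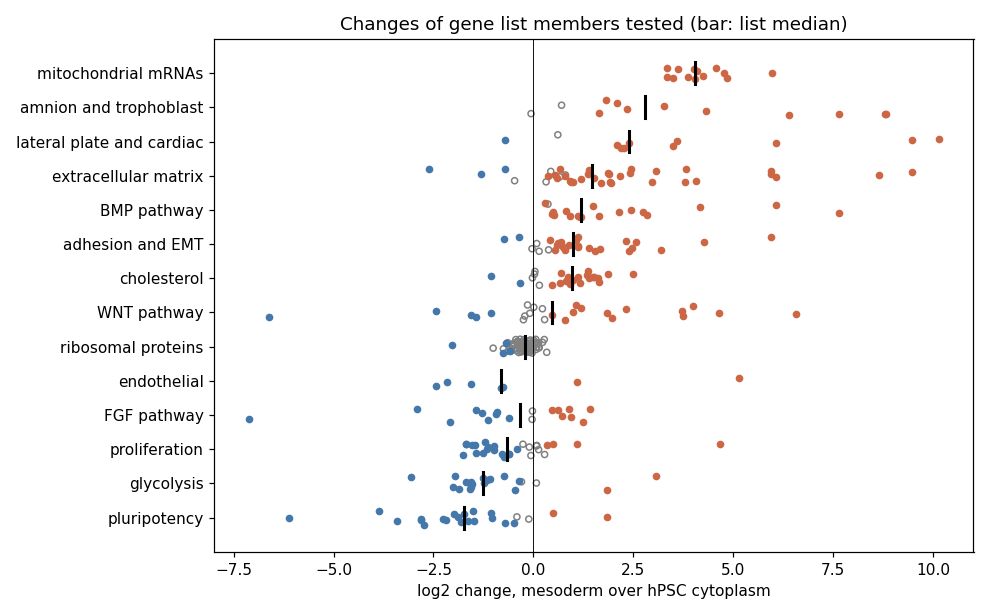
Each point is 1 tested gene of a list, placed by its log2 change from hPSC to mesoderm cytoplasm, filled where called (right of 0 higher, left of 0 lower) and open where not; bars are list medians, and a gene with 0 counts in a group is drawn at its bound. The medians run from -1.75 for pluripotency genes to 4.05 for mitochondrial mRNAs.

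Genes of adhesion and matrix rose in large number. In the adhesion and epithelial-mesenchymal list 28 of 34 genes were tested, 22 rose and 2 fell (SNAI1 and the splicing factor ESRP1, which was at 0.30 and higher on common Ensembl transcripts, adjusted p = 0.0278), and those that rose included both epithelial and mesenchymal genes. CDH1, the epithelial cadherin, went from 57.9, 67.4 and 85.3 to 163, 143 and 155 CPM (1.13, SE 0.14, adjusted p = 0.000141). CDH2, the mesenchymal cadherin, went from 4.63, 8.43 and 9.68 to 46.7, 43.9 and 38.4 CPM (2.46, SE 0.21, adjusted p = 1.51e-05). EPCAM (1.06), the desmosomal plakophilin PKP2 (3.20), claudin CLDN4 (2.57) and the epithelial transcription factor GRHL2 (2.40) rose, and so did the mesenchymal intermediate filament VIM, from 138, 219.7 and 212 to 922, 913 and 996 CPM (2.31, SE 0.18, adjusted p = 8.47e-06). Of the factors that repress CDH1, SNAI1 fell (-0.74, SE 0.27, adjusted p = 0.037; 0.0611 to 0.128 without hPSC replicate 1 or any 1 mesoderm replicate), SNAI2 was in the mesoderm table only at 7.75 CPM, and ZEB2 there at 0.339 CPM. In the nucleus libraries 13 of the list rose and 6 fell, where 35.3% of all genes rose and 35.5% fell. CDH1 was not called there (-0.13, adjusted p = 0.339), and its cytoplasmic change exceeded the nuclear one by 1.41 (SE 0.20, adjusted p = 0.000102).

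In the extracellular matrix list 38 of 45 genes were tested, 30 rose and 3 fell, with a median of 1.46. FN1, fibronectin, went from 15.0, 20.5 and 21.8 to 1297, 1059.8 and 1217 CPM (5.95, SE 0.19, adjusted p = 8.54e-08). TNC, tenascin C, went from 1.19, 0.746 and 1.64 to 81.2, 73.5 and 87.0 CPM (6.06, SE 0.21), and the laminin chain LAMB1 from 11.1, 17.2 and 17.2 to 268, 247 and 259.5 CPM (4.07, SE 0.17). Every mesoderm library exceeded every hPSC library several-fold in these genes. Fibrillar collagens rose at different sizes. COL3A1 had 0 counts in every hPSC library and 35.8, 29.8 and 37.8 CPM in mesoderm, at least 399-fold higher against a floor of 3 counts over the group. COL5A1 rose by 3.82 and COL5A2 by 3.79, while COL1A1, already at 87.6 ± 16.9 CPM in hPSC (SD, n = 3), rose by 1.36 to 225 ± 22.4 CPM. Among basement membrane collagens COL4A5 (2.16) and COL4A6 (3.08) had larger values than COL4A2 (0.93). COL4A1 rose in counts (0.67) but was at -4.63 in the authors' TPM, so its direction depends on the unit. The members that fell were COL6A1 (-1.32), COL6A2 (-0.72) and the link protein HAPLN3 (-2.62), so the related link proteins HAPLN1 and HAPLN3 moved in opposite directions. The matrix crosslinker LOXL2 (2.42) and the gelatinase MMP2 (2.45) also rose, and LUM (lumican) was in the mesoderm table only at 44.6, 52.7 and 52.6 CPM.

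The actomyosin and cytoskeleton list, with 31 genes all tested, had 15 higher and 7 lower members. Of all genes tested, 34.1% rose and 31.8% fell. Among those that rose were CALD1 (caldesmon), from 107, 109.7 and 109.5 to 618, 631 and 607 CPM (2.51, SE 0.10), the tropomyosin TPM1 from 460.3, 432 and 424 to 1874, 2122 and 2035 CPM (2.20, SE 0.12) and TAGLN (transgelin) by 2.19. Of the 7 that fell, 5 were tubulins, among them TUBB2B (-1.54) and TUBB3 (-1.27), and the others were the actin regulators PFN1 (-1.27) and CFL1 (-0.52; adjusted p = 0.05345 and 0.0526 without mesoderm replicates 1 and 2). ACTB was not called (3934, 5491 and 5891 CPM in hPSC, 6145, 5957 and 6625 CPM in mesoderm, adjusted p = 0.198).

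Other signalling lists were mixed, beside the 34.1% of all genes that rose and the 31.8% that fell. In the FGF list 18 of 26 were tested, 7 rose and 9 fell. Among those that fell were the FGF targets ETV1 (from 40.3, 40.4 and 42.2 to 7.58, 3.91 and 4.67 CPM, -2.92, SE 0.21) and DUSP4 (-2.09, SE 0.21; -0.41 and not called in the authors' TPM, adjusted p = 0.0969), the receptor FGFR1 (-0.94, SE 0.10), and FGF19, which had 7.55, 7.24 and 8.04 CPM in hPSC and 0.0642, 0 and 0.0805 CPM in mesoderm, a ratio of 168 (95% counting interval 46.1 to 1396). The feedback inhibitors split: SPRY4 fell (-1.14) and SPRY2 rose (1.41). FGF2, the ligand also added to the medium, was in the hPSC table only at 184, 159 and 169 CPM, and FGFR3 in the mesoderm table only at 108, 111 and 113 CPM. In the Nodal and activin list 8 of 21 were tested, 5 rose and 1 fell. The receptor ACVR1B fell from 25.1 ± 3.44 to 2.67 ± 0.916 CPM (SD, n = 3; -3.21, SE 0.23, adjusted p = 4.87e-06), and the activin antagonist FST (follistatin) rose from 5.96, 9.62 and 10.7 to 67.0, 70.2 and 67.6 CPM (2.92, SE 0.18, adjusted p = 1.75e-06). FOXH1, the SMAD partner of Nodal signals, was in the hPSC table only, at 103 ± 15.1 CPM.

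In the WNT list 25 of 47 were tested, 13 rose and 5 fell (on common Ensembl transcripts 7 of 17 rose), and 12 more were in the mesoderm table only. Here and for the VEGF and Notch list below, the shares of all genes were 34.1% higher and 31.8% lower. The frizzled receptors FZD1 (3.73), FZD2 (1.96), FZD4 (1.85) and FZD6 (2.32) rose. The ubiquitin ligases that remove frizzled receptors went apart: RNF43 rose from 1.72, 1.12 and 1.85 to 25.3, 22.6 and 26.2 CPM (3.99, SE 0.20, adjusted p = 6.11e-07), and ZNRF3 fell from 14.4, 22.8 and 24.8 to 0.193, 0.248 and 0.161 CPM (-6.61, SE 0.34, adjusted p = 7.62e-07). ZNRF3 had no transcript with an Ensembl ID common to both tables, so its fall cannot be told apart from a change of gene model, and on common transcripts RNF43 was at 1.80 and not called (adjusted p = 0.249). The feedback target AXIN2 fell (-1.05, SE 0.15, adjusted p = 0.000329) but was at 0.49 in the authors' TPM. In the VEGF and Notch list 16 of 26 were tested, 8 rose and 5 fell: NOTCH1 fell from 38.1, 40.7 and 46.2 to 1.28, 1.61 and 1.45 CPM (-4.84, SE 0.16), whereas NOTCH2 (1.37) and NOTCH3 (1.21) rose. NOTCH1 also lacked a common Ensembl transcript.

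Genes of glycolysis fell nearly as a block. All 21 genes listed were tested, 17 fell, 2 rose and the median was -1.25, against 31.8% of all genes that fell. The 21 genes summed to 23873, 23199 and 22648 CPM in hPSC and to 10477, 10237 and 10780.0 CPM in mesoderm, so every mesoderm library held less than any hPSC library. LDHA, which turns pyruvate into lactate, went from 1215, 1199.6 and 1196 to 140.2, 138 and 156 CPM, a fall of 3.06 (SE 0.12, adjusted p = 1.57e-07). PGK1, a kinase that makes ATP in glycolysis, went from 898, 873 and 859.5 to 213, 220.2 and 222 CPM (4.01-fold lower, log2 SE 0.10, adjusted p = 7.47e-07). The triose isomerase TPI1 went from 1523, 1323 and 1224 to 336, 373 and 405 CPM (-1.87, SE 0.14, adjusted p = 5.42e-06). GAPDH, the most abundant of them in TPM in both groups, went from 7691, 6369 and 6173 to 2844, 2850.2 and 2968 CPM (-1.22, SE 0.16, adjusted p = 0.000141).

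The exceptions were transporters and a phosphofructokinase. SLC2A3 (GLUT3), a high-affinity glucose transporter, rose from 162, 195 and 219 to 1678, 1551 and 1646 CPM (3.08, SE 0.15, adjusted p = 5.33e-07), and the lactate exporter SLC16A3 (MCT4) from 3.84, 3.36 and 3.84 to 12.1, 14.3 and 13.0 CPM (1.84, SE 0.17). SLC2A1 (GLUT1; -0.30, SE 0.13, adjusted p = 0.0665) and PFKL (0.08, SE 0.13, adjusted p = 0.618) were not called. In the nucleus libraries 16 of the 21 fell and 3 rose, where 35.5% of all genes fell and 35.3% rose. EPAS1 (HIF-2α), an oxygen-regulated transcription factor, went from 0.794, 0.970 and 1.64 to 554, 555 and 505 CPM (8.81, SE 0.21, adjusted p = 3.59e-08), among the 12 largest rises named by size. DDIT4, a stress-induced gene also known to be oxygen-regulated, fell from 469.8, 403 and 377 to 58.1, 68.7 and 60.0 CPM (-2.74, SE 0.13, adjusted p = 4.17e-07).

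Genes of the cholesterol list rose. Of 24, all tested, 18 rose and 2 fell, with a median of 0.96 and sums of 1434, 1552 and 1571 CPM in hPSC and 2749, 2618 and 2644 CPM in mesoderm. MSMO1, a sterol demethylase, went from 19.7, 30.4 and 28.4 to 143, 152 and 152 CPM (2.50, SE 0.15, adjusted p = 1.86e-06). HMGCS1, a synthase of the mevalonate pathway, went from 76.4, 97.4 and 97.4 to 342, 342 and 309 CPM (1.87, SE 0.12, adjusted p = 2.89e-06). No library overlapped between the groups in these genes, which was so for 71.4% of all genes. SREBF2, the transcription factor that controls the pathway, rose by 0.93 (SE 0.14). The members that fell were PMVK (-1.05) and FDPS (-0.34), both in the mevalonate branch; without mesoderm replicate 2 or 3 FDPS was not called (adjusted p = 0.0514 and 0.055). The groups were also grown in different media, which cannot be told apart from the cell type.

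**Figure D3:**
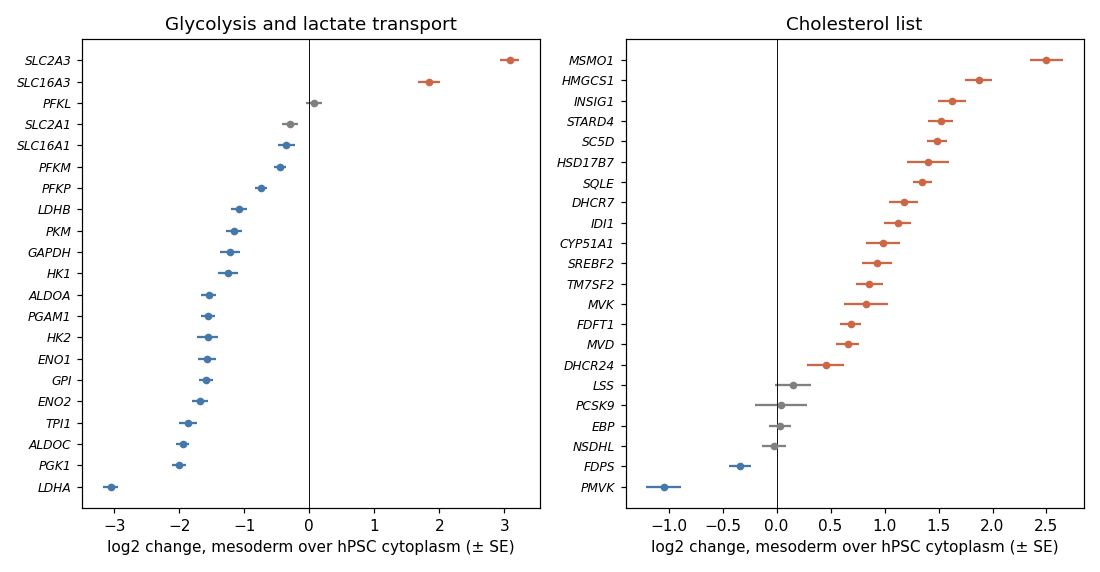
Log2 changes from hPSC to mesoderm cytoplasm with their SE (bars) for the 21 genes of glycolysis and lactate transport on the left and 22 of the 24 genes of the cholesterol list on the right; grey points were not called. On the left 17 called genes lie below 0 and SLC2A3 stands highest at 3.08; on the right 16 called genes lie above 0, up to MSMO1 at 2.50.

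Of 29 proliferation genes 28 were tested in cytoplasm, 17 fell and 4 rose, with a median of -0.67. The nucleus libraries did not show this fall to the same degree. There 9 of the 28 rose and 12 fell, with a median of -0.13, where 35.3% of all genes rose and 35.5% fell. The values that follow are of cytoplasm. The replication helicase was lower in all of MCM2 to MCM7, for example MCM5 from 434, 479 and 473 to 144, 122 and 146 CPM (-1.75, SE 0.11, adjusted p = 2.57e-06). MCM2 went from 292, 389 and 399 to 118, 106 and 113 CPM (-1.68, SE 0.14, adjusted p = 9.73e-06). The G1/S regulators E2F1 (-1.68) and CCNE1 (-1.53) fell too. The other 9 that fell had log2 values from -1.27 (PCNA, the polymerase clamp) to -0.41 (AURKA, a mitotic kinase, not called in the authors' TPM, adjusted p = 0.229). Of the 7 not called, MKI67 was at 57.6, 76.2 and 85.1 CPM in hPSC and 82.0, 71.2 and 78.3 CPM in mesoderm (adjusted p = 0.658), and TOP2A at 177, 249 and 257 and 270.3, 248 and 229 CPM (adjusted p = 0.466). The cyclin-dependent kinase inhibitors CDKN1A, from 116, 94.1 and 91.3 to 221, 213 and 212 CPM (1.10, SE 0.11), and CDKN1C, an imprinted gene, from 1.85, 0.895 and 1.21 to 29.2, 33.0 and 33.8 CPM (4.67, SE 0.21), rose.

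Among DNA methylation genes 10 of 12 were tested in cytoplasm, 6 fell and 3 rose, where 31.8% of all genes fell and 34.1% rose. In the nucleus 2 of the 10 fell and 3 rose, with a median of 0.01, where 35.5% of all genes fell. Besides DNMT3B, UHRF1 (-1.26), which brings DNMT1 to replicated DNA, DNMT1 (-0.61) and DNMT3A (-0.57) fell. DNMT1 was not called on common Ensembl transcripts (-0.34, adjusted p = 0.129), nor DNMT3A in the authors' TPM (-0.47, adjusted p = 0.091), and under each of these settings 3 members of the list fell. Of the TET dioxygenases, which oxidise methylcytosine, TET1 was not called (46.1, 49.9 and 59.7 CPM in hPSC, 63.3, 60.6 and 52.7 CPM in mesoderm), and TET2 had 0, 0.0746 and 0.142 CPM in hPSC and 11.6, 9.18 and 9.10 CPM in mesoderm, a ratio of 117 (95% counting interval 39.8 to 569). IGF2, an imprinted fetal growth factor, went from 0, 0 and 0.285 to 86.6, 86.3 and 84.9 CPM (9.44, SE 0.33, adjusted p = 1.14e-07). Its neighbour H19, a noncoding RNA of the same imprinted locus, was in the mesoderm table only at 282, 368 and 372 CPM. In the stress and immediate-early list 17 of 18 were tested, 6 rose and 8 fell, with JUN rising most (2.60) and HMOX1, a heme oxygenase, falling most (-3.36).

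All 79 cytosolic ribosomal protein genes were tested, 0 rose and 4 fell, among them RPS26, RPS12 and RPL8 (with 1 mesoderm replicate left out RPS26 kept its call each time, and RPS12 and RPL8 ran from 0.0533 to 0.136 in adjusted p), with a median of -0.20. They summed to 205280, 126780 and 111770 CPM in hPSC and 109900, 143660 and 135580 CPM in mesoderm, so that hPSC replicate 1 lay well above the other libraries. These genes have many processed pseudogenes that can share their reads. Without it, 13 rose and 3 fell. In the nucleus libraries 0 rose and 78 fell, with a median of -1.65. Whether the nucleus preparations of the cell types held different amounts of cytoplasmic RNA was not tested.

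Mitochondrial mRNAs rose as a group. All 13 were tested and rose in mesoderm cytoplasm, with a median of 4.05 and sums of 5949, 3395 and 4441 CPM in hPSC and 47633, 64546 and 62939 CPM in mesoderm. MT-CO1, subunit 1 of cytochrome c oxidase, went from 2151, 1232 and 1596 to 17901, 21309.7 and 21846 CPM (3.62, SE 0.25, adjusted p = 4.14e-06). The 16S rRNA MT-RNR2 went from 578, 814 and 984 to 9224, 13797 and 12834 CPM (3.92, SE 0.27, adjusted p = 3.55e-06). The smallest mRNA, MT-ATP8, varied most, with 0.132, 0.671 and 0.783 CPM in hPSC and 7.45, 89.6 and 15.1 CPM in mesoderm (5.96, SE 1.18), and mesoderm replicate 2 was far above the others. It overlaps MT-ATP6, with which reads can be shared.

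In the nucleus libraries the same 13 mRNAs all fell, with a median of -3.84. MT-CO1 went from 41766, 43965 and 50975 CPM in hPSC nucleus to 3682, 3698 and 4052 CPM in mesoderm nucleus (-3.58, SE 0.11, adjusted p = 1.13e-12). The difference of the changes, cytoplasm minus nucleus, was 7.35 (SE 0.32, adjusted p = 2.17e-10). Mitochondrial genes took 0.399% to 0.615% of counts in hPSC cytoplasm and 13.1% to 15.4% in hPSC nucleus; in mesoderm they took 5.84% to 7.46% in cytoplasm and 1.11% to 1.36% in nucleus. The rise in cytoplasm thus stood beside an opposite change in the nucleus preparation of the same cell types, and the total over both preparations was not measured. Whether mitochondria were partitioned differently by the fractionation was not tested. With mitochondrial genes left out of the library totals, 8030 genes were called in cytoplasm.

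**Figure D4:**
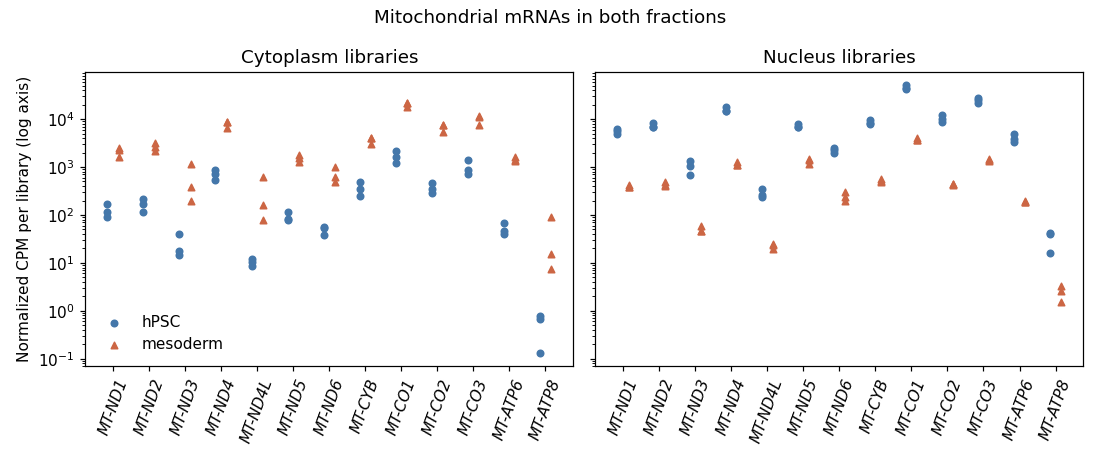
Normalised CPM per library (log axis) of the 13 mitochondrial mRNAs in cytoplasm libraries on the left and nucleus libraries on the right, with circles for hPSC and triangles for mesoderm. In cytoplasm every mRNA is higher in the 3 mesoderm libraries, and in nucleus every one is lower.

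The nucleus libraries served as other libraries of the same cell types. There 8625 of 12170 genes changed (70.9%), of which 49.8% were upward with TMM and 60.0% without it. Of 12054 genes tested in both fractions, 4110 were higher in mesoderm cytoplasm; 3006 of these (73.1%) were higher in the nucleus too, 254 were lower and 850 were not called. Of 3850 lower in cytoplasm, 2727 (70.8%) were lower in the nucleus, 221 were higher and 902 were not called. The change differed between the fractions in 4684 of 12306 genes (38.1%), 3200 with a larger value in cytoplasm and 1484 with a smaller one. That split turned with the scaling: without TMM the median of all genes moved by -0.35, 4448 genes were called and 30.8% of them had the larger value in cytoplasm, against 68.3% with TMM. Under both scalings, and with the same sign, 2856 genes were called, 1372 with the larger and 1484 with the smaller value in cytoplasm. The joint fit scales all 12 libraries together, so a difference need not equal the gap between the separate changes.

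The differences of the genes named next were called with and without TMM. In the list of nuclear-retained RNAs 5 of 8 were tested in cytoplasm, 3 rose and 2 fell. In cytoplasm 34.1% of all genes rose and 31.8% fell. NEAT1, the scaffold of paraspeckles, rose in cytoplasm from 3.84, 4.18 and 2.78 to 38.5, 42.2 and 41.3 CPM (3.51, SE 0.16, adjusted p = 4.01e-07) and more in the nucleus (5.90; difference -2.23, adjusted p = 0.000557). MALAT1, of nuclear speckles, fell in cytoplasm from 261, 281 and 223 to 154, 183 and 203 CPM (-0.50, SE 0.13, adjusted p = 0.0092), though it was at 0.87 in the authors' TPM, and rose in the nucleus (1.76; difference -2.11, adjusted p = 4.24e-05). NES (nestin), an intermediate filament protein, fell in cytoplasm (-0.69, SE 0.09) and rose in the nucleus (1.53; difference -2.08, adjusted p = 5.46e-07). L1TD1, an RNA-binding protein of stem cells, fell in cytoplasm (-1.75, SE 0.11) and was not called in the nucleus (-0.08; difference -1.51, adjusted p = 9.09e-06).

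The largest changes of the whole comparison need the gene models beside them. Of the 195 genes that changed by at least 5 on the log2 scale, 154 (79.0%) had no transcript with an Ensembl ID common to both tables, against 2356 (19.4%) of all tested genes. Of the 24 genes with the largest changes in either direction, 6 had such a transcript and all 6 were called on it alone: COL3A1, TBX3, HAPLN1, IGF2, EPAS1 and SLX1B. SLX1B, a subunit of a structure-specific endonuclease, had 44.5, 36.5 and 31.7 CPM in hPSC and 0 counts in every mesoderm library, at least 534-fold lower. It has a near-identical copy, SLX1A, between which the authors' counting could divide reads, so its value is uncertain.

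The other 18 had no such transcript that could be tested. Among the rises, SMCHD1, a chromatin protein of X inactivation, had 0, 0.0746 and 0 CPM in hPSC and 78.3, 69.1 and 63.1 CPM in mesoderm, a ratio of 2474 (95% counting interval 444 to 97755), and DNAJC21, a ribosome assembly factor, 0, 0.0746 and 0 and 73.6, 72.8 and 72.0 CPM, a ratio of 2550.4 (95% counting interval 457 to 100765). TATDN1 (ratio 836, 95% counting interval 149.7 to 33045), ZFP14 (at least 169-fold), ZNF702P (at least 135-fold), TCIM (ratio 885, 95% counting interval 245 to 7313) and the endocytic receptor LRP2 (ratio 709.6, 95% counting interval 196 to 5864) were higher in the same way. In the other derived cells, counted on their own assemblies, SMCHD1 stood at 54.8, 60.0 and 43.4 CPM in endoderm cytoplasm and 88.6, 71.9 and 69.9 CPM in ectoderm cytoplasm. Among the falls, the noncoding RNA HDAC2-AS2 went from 828, 813 and 927 to 0.578, 0.248 and 0.966 CPM (-10.53, SE 0.29), and LIMK1, a kinase of the actin regulator cofilin, from 115, 134 and 155 to 0.193, 0.124 and 0.322 CPM (-9.30, SE 0.24). The kinases DYRK1A (ratio 723, 95% counting interval 199.7 to 5978), PFKFB2 (ratio 1155, 95% counting interval 207 to 45679) and RPS6KA3 (at least 194-fold) were lower, as were HMCN1 (ratio 443, 95% counting interval 122 to 3669), DANT1 (ratio 199, 95% counting interval 67.6 to 967), PREX2 (-6.59), the pseudogene PHC1P1 (-6.53), which can share reads with PHC1, and the small nucleolar RNA SNORD116-6 (at least 504-fold). Ratios set the higher group over the lower, from group counts of 1 to 3 in the lower one, with intervals for counting error only. Whether these differences lie in the RNA or in the models was not tested. For SNORD116-6 it was also not tested whether the counts are of the mature small RNA or of longer transcripts at its locus. Among genes described above, ESRG, KLF4, TBX6, ACTA2, VTCN1, NRP1, COL4A6, HAPLN3, ETV1, ACVR1B, FZD1, AXIN2, SLC16A3, CDKN1C, TET2, NEAT1 and MALAT1 also lacked a common Ensembl transcript that could be tested. On common transcripts alone, 14 of 19 pluripotency genes fell and 2 rose, 9 of 11 amnion and trophoblast genes rose and 0 fell, 26 of 31 matrix genes rose and 3 fell, 16 of 20 glycolysis genes fell and 1 rose, and 19 of 24 cholesterol genes rose and 1 fell. Over all genes 5510 of 9748 were called (56.5%).

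By difference of mean TPM, the most abundant genes that fell were COX7C, PFN1, GAPDH, PPIA and POU5F1. COX7C, a small subunit of cytochrome c oxidase encoded in the nucleus, went from 1285, 568 and 471 to 251, 372 and 279 CPM (-1.36, SE 0.35, adjusted p = 0.00785), with hPSC replicate 1 at over 2 times the other hPSC libraries. PPIA, cyclophilin A, fell over all transcripts (-0.98, SE 0.19, adjusted p = 0.00186) but was at 0.14 and not called over transcripts common to both tables (adjusted p = 0.499). The genes that rose most in TPM were MT-CO1, MT-CO2, MT-CO3, MT-RNR2 and ENSG00000280441, annotated as a long noncoding RNA on chromosome 21. ENSG00000280441 went from 10.3, 11.6 and 6.69 to 3399, 4490.5 and 7702 CPM (9.09, SE 0.44, adjusted p = 5.06e-07). Another chromosome 21 gene annotated as a long noncoding RNA, ENSG00000278996, had a row in the hPSC table only. It stood at 181, 17946 and 12670.0 CPM, the highest mean of any gene found in 1 table. Whether the rise of ENSG00000280441 is a change of gene model was not tested. Nor was it tested whether the counts of these chromosome 21 genes hold ribosomal RNA reads.

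Genes found in 1 table only took a small share of the counts. The 2633 genes of the hPSC table alone made up 2.46% to 4.04% of hPSC cytoplasm counts; 1448 of them had a mean of at least 1 CPM and 382 of at least 10 CPM. The 2522 genes of the mesoderm table alone made up 2.03% to 2.38% of mesoderm cytoplasm counts, with 1321 at 1 CPM or more and 400 at 10 CPM or more. Besides TDGF1, LINC00678 and MIR302CHG, the most abundant named genes of the hPSC table alone were SEMA3E, a secreted guidance molecule (814, 655 and 815 CPM), GUCY2C-AS1, an antisense RNA (343, 306 and 332 CPM), and CRABP1, a retinoic acid binding protein (409, 252 and 225 CPM). In the mesoderm table alone they were RNA5-8SN4, a 5.8S ribosomal RNA copy (2959, 3420.2 and 8394 CPM), ANXA1 (annexin A1; 396, 425 and 383 CPM), H19, PRTG (protogenin, a surface protein of early embryos; 260.3, 235 and 183 CPM), NR2F2 (COUP-TFII; 177, 177 and 176 CPM) and TFAP2A. Whether the labels' library kit kept strand is not stated, so reads of antisense genes and of the genes they overlap cannot be told apart.

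Mesoderm was last set beside the other derived cells, with genes found in all 4 tables. In these tests 5815 of 10673 genes differed from endoderm cytoplasm (54.5%) and 6541 from ectoderm cytoplasm (61.3%). They use the same mesoderm libraries as the comparison with hPSC, so the values are given side by side only. Of the 13 mitochondrial mRNAs, all were higher in mesoderm than in endoderm and than in ectoderm, where 25.7% and 32.5% of all genes were; 28.8% of all genes were lower in each comparison. Of 18 BMP list genes in all 4 tables, 5 were higher and 4 lower than in endoderm, and 12 were higher and 3 lower than in ectoderm. MSX2 did not differ from endoderm beyond its error (0.23, adjusted p = 0.276) and was above ectoderm (4.62, adjusted p = 1.31e-10), and ID1 did not differ from endoderm (0.00, adjusted p = 0.99). Of 21 glycolysis genes, 0 were higher and 19 lower than in endoderm, and 7 were higher and 10 lower than in ectoderm. Of 24 cholesterol genes, 5 were higher and 6 lower than in endoderm, and 12 were higher and 2 lower than in ectoderm.

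Single genes separated mesoderm from both. EPAS1 was higher than in endoderm by 5.42 (adjusted p = 2.68e-12) and than in ectoderm by 7.68 (adjusted p = 8.67e-13), TGFBI, a secreted adhesion protein, by 3.76 and 2.33, HAPLN1 by 3.40 and 2.46, and IGF2 by 3.23 and 4.93. KRT18 was higher than in endoderm by 0.94 and than in ectoderm by 2.70, while KRT19 was lower than in endoderm (-0.94) and higher than in ectoderm (1.29). POU5F1 was lower than in endoderm (-0.87, adjusted p = 0.000421) and higher than in ectoderm by 7.18 (adjusted p = 4.00e-12). Without TMM the median of all genes moved by -0.10 in both tests.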

How the data were processed

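RNA of 6 cytoplasm libraries was compared (3 mesoderm, 3 hPSC), with nucleus, endoderm and ectoderm libraries beside them. The authors deposited whole-number counts per assembled transcript, in a table for each cell type, and TPM, length-corrected shares of a library, in parallel tables. Per the submitters' processing notes STAR, RSEM and hg38 were used; versions and roles are not given in the sources used here, so the counts may be rounded estimates. The labels name an NEBNext Ultra kit and do not give its strandedness. There was 1 per-sample column that matched no sample, and it was not used. Transcripts of no Ensembl gene (0.911%, 9.36% and 7.87% of hPSC cytoplasm counts, 1.24%, 1.45% and 2.34% of mesoderm cytoplasm counts) stayed out.

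Counts were summed per Ensembl gene and tested with edgeR 4.0.16 (R 4.3.3): TMM, filterByExpr with a minimum count of 10, and the two-sided quasi-likelihood F test. SE is the change over the root of F. The difference between fractions is an interaction term over 12 libraries. The script was tested on simulated data. DESeq2 1.42.0 and limma 3.58.1 (on log2 of TPM plus 1) were alternatives. Where a group held 0 counts a fold is a bound against 3 counts over the group; with 1 to 3 counts it is a ratio with its 95% interval. Neither covers more than counting error, because reads copied by PCR are not separate molecules. Gene types and coordinates came from GENCODE release 29, which matched 98.4% of tested genes; sequences came from RefSeq.

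Genes were named by these rules: members of the gene lists; the 12 largest rises and 12 largest falls among called genes with at least 10 CPM and no overlap; the 5 largest differences of TPM in each direction; the 6 most abundant named genes of each table alone; and the 5 largest differences between fractions in each direction. Differences between fractions were ranked among called genes with a mean of at least 10 CPM over the 12 libraries. SLX1A and PHC1 were named for shared sequence. Members, lists and rules were chosen with earlier results of these data known. Some genes are not reported here by name.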

Additional observations from a re-analysis of the deposited data

Results flagged for a closer look

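The genes below changed by different amounts in cytoplasm and nucleus, by the test of the difference itself (edgeR, adjusted p under 0.05). They are the 5 largest of each sign among called genes with a mean of at least 10 CPM over the 12 libraries. Each was called without TMM as well. The values are log2 changes in cytoplasm minus those in nucleus.

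ENSG00000280800 differed by 11.12 (adjusted p = 0.00814), and whether its counts hold ribosomal RNA reads was not tested. It stood at 1.06, 1.12 and 0 CPM in hPSC cytoplasm and 7126, 8607 and 21266 CPM in mesoderm cytoplasm, and at 30.9, 140.1 and 14.1 CPM in hPSC nucleus and 0, 1671 and 0 CPM in mesoderm nucleus, where 1 library held all of it. The mitochondrial mRNAs MT-ATP8 (9.93), MT-ATP6 (9.40), MT-ND3 (9.06) and MT-CO2 (8.92) rose in cytoplasm and fell in nucleus. MT-ATP6, a subunit of ATP synthase, went from 45.9, 39.5 and 67.2 to 1410.0, 1633 and 1321 CPM in cytoplasm and from 3386, 3771 and 4822 to 186, 191 and 185 CPM in nucleus. The groups did not overlap in either fraction, which in cytoplasm was so for 71.4% of all genes.

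ENSG00000277067 differed by -8.09 (adjusted p = 0.00473): it went from 3.44, 0 and 3.70 to 49.6, 46.3 and 38.9 CPM in cytoplasm and from 0, 0 and 0 to 45.2, 51.1 and 70.4 CPM in nucleus, and a fitted difference that rests on libraries at 0 depends on the prior count. DYRK1A differed by -4.98, at 26.5, 33.3 and 35.7 and 0.128, 0 and 0 CPM in cytoplasm against 23.8, 24.7 and 23.5 and 1.16, 0.539 and 2.54 CPM in nucleus. The small nucleolar RNA gene SNORD116-4 (-4.26) fell more in cytoplasm (-5.86) than in nucleus (-1.45). Whether these SNORD116-4 counts are of the mature small RNA or of longer transcripts at its locus was not tested. ENSG00000290548 (-3.54) fell in cytoplasm (-2.41), from 5.83, 11.9 and 8.25 to 1.67, 1.74 and 1.53 CPM, and had a nuclear value of 1.28 (adjusted p = 0.0181). The gene MIR3198-2 (-3.30) went from 118, 94.0 and 48.5 to 223, 250.1 and 274 CPM in cytoplasm and from 0.158, 18.3 and 1.09 to 191, 178 and 229 CPM in nucleus; these counts are of longer transcripts at its locus, not of the mature miRNA.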

How the results depend on the processing

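The count of 8016 genes called in cytoplasm stayed within 1.5 times under every other setting run except the added fold: 7737 without TMM, 7999 with upper-quartile scaling, 8097 without a filter, 8058 with DESeq2, 7264 in a fit of 12 cytoplasm libraries, 6915 with limma on the authors' TPM, and 5510 of 9748 on common Ensembl transcripts. Requiring at least 2-fold as well gave 3511 in cytoplasm and 1747 for the difference between fractions. With 1 replicate left out, the counts ran from 7060 to 8851 in cytoplasm, 7960 to 8465 in nucleus, 3939 to 5615 for the difference, 4862 to 6495 against endoderm and 5859 to 7126 against ectoderm. Of calls in cytoplasm 51.7% were upward, against 64.4% in TPM, whose median over all genes was 0.18. Without TMM the upward share went from 49.8% to 60.0% in nucleus and fell for the difference from 68.3% to 30.8% (56.0% with DESeq2).

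Replicate numbers did not pair the samples: deviations of same-numbered cytoplasm libraries correlated at -0.35, -0.07 and -0.19. With the replicate block 7194 genes were called in cytoplasm, 8151 in nucleus, 4371 for the difference, 5574 against endoderm and 6311 against ectoderm.

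Of 173 genes followed one by one, 148 neither lost a call nor changed direction in any setting that could test them. Not every gene could be tested in every setting. On common Ensembl transcripts 117 kept their result, 6 lost the call, 4 changed direction and 1 was stronger. The rest could not be tested there. On common Ensembl transcripts ACVR1 turned to -1.13, ESRP1 to 0.30, PPIA to 0.14 and KRT7, not called, to 0.021. In the authors' TPM COL4A1 turned to -4.63, AXIN2 to 0.49, MALAT1 to 0.87, SRF to 1.24 and KRT7 to 0.168; the cause was not tested. With 1 replicate left out, genes that were not called crossed 0: KRT7 ran from -0.19 to 0.043, MKI67 from -0.065 to 0.19, PFKL from -0.038 to 0.13 and TOP2A from -0.021 to 0.22.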
